A study of Mus musculus with 15 samples.

Results

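The genes described here are 5 subunits of the phagocyte-type NADPH oxidase, Cybb, Cyba, Ncf1, Ncf4 and Rac2, taken by symbol from both tables of normalized expression values. They are 5 of the 17029 genes listed in either table, and 15869 genes are in both. The genes were chosen with results on these libraries already known, so their levels and genotype differences are given as a description with no test. The libraries came from malignant B-cells of leukemic spleens of C57Bl/6 mice with 1 of 2 genotypes, Eμ-TCL1 or Eμ-TCL1;p53R172H/+, and all 15 were placed in culture for 24 h. In the DMSO (vehicle) table there were 3 Eμ-TCL1 libraries (replicates 2, 3 and 4) and 5 Eμ-TCL1;p53R172H/+ libraries (replicates 1 to 5). In the table for ibrutinib (5 μM), an inhibitor of the kinase BTK, there were 3 Eμ-TCL1 libraries (replicates 1, 3 and 4) and 4 Eμ-TCL1;p53R172H/+ libraries (replicates 1, 3, 4 and 5). All mice carried the TCL1 oncogene under the Eμ enhancer, which drives it in B-cells, and the second genotype also carried a mutant Trp53 allele beside a wild-type one. The study asked how a p53 alteration changes these cells and their response to ibrutinib. The cells were released by mechanical disruption, no sort is stated, and the ages of the mice were not stated for these libraries.

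The oxidase moves electrons from NADPH across a membrane to oxygen and so makes superoxide. Its catalytic core, flavocytochrome b558, is a pair of membrane proteins, gp91phox (Cybb) and p22phox (Cyba). On activation cytosolic subunits, among them p47phox (Ncf1) and p40phox (Ncf4), join the core together with the GTPase Rac2. The complex is best known for killing microbes in neutrophils and macrophages, and B-cells carry it at lower levels. Loss of Cybb, Cyba, Ncf1 or Ncf4 in humans causes chronic granulomatous disease or a related immune deficiency.

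On mouse build GRCm38, Cybb (ENSMUSG00000015340) was annotated on the minus strand of chromosome X from 9435252 to 9487771, and Cyba (ENSMUSG00000006519) on the minus strand of chromosome 8 from 122424776 to 122432930. Ncf1 (ENSMUSG00000015950) lay on the minus strand of chromosome 5 from 134220053 to 134229625. Ncf4 (ENSMUSG00000071715, plus strand, 78244801 to 78262580) and Rac2 (ENSMUSG00000033220, minus strand, 78559167 to 78572783) lay 297 kb apart on chromosome 15. Ncf1 overlapped Gtf2ird2 on the other strand, and since no strand setting is stated, reads of these overlapping genes cannot be told apart. Gtf2ird2 had values between 7.1 and 27.2 in DMSO and between 8.1 and 20.2 in ibrutinib. Cyba overlapped another annotated coding gene on the other strand, which was not analysed here.

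The 250 bases before the transcription start are shown for the 3 members with a RefSeq promoter entry (GRCm38.p6, minus strand, written 5′ to 3′ along the gene). Whether these promoters had a part in the levels of the members was not tested. Capitals mark 2 of the motifs searched, GGGCGG (the GC box bound by Sp proteins, CCGCCC on the other strand) and CCAAT. Cybb is at chrX:9469325-9469574, Cyba at chr8:122432941-122433190 and Ncf1 at chr5:134229626-134229875.
Cybb: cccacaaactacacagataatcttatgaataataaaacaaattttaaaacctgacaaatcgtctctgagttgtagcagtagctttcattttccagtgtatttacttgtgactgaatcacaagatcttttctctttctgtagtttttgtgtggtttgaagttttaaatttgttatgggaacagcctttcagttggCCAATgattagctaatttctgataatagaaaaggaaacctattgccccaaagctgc
Cyba: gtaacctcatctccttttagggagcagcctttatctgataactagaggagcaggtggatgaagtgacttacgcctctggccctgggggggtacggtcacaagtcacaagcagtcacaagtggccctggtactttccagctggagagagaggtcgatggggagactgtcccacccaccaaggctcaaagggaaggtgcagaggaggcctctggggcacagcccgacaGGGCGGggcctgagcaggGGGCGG
Ncf1: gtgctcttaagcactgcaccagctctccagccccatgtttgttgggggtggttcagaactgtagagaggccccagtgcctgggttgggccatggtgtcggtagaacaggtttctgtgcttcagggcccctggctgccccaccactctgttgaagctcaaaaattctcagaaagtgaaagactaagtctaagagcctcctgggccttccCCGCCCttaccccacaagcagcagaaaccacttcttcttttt
The Cybb window held CCAAT with its first base at position -56, the Cyba window held GGGCGG at -24 and -6, and the Ncf1 window held CCGCCC at -42. The letters GAGGAA, a form of the sites known for PU.1, were searched on both strands as well and were in none of the 3 windows. TTCCTC, the same letters on the other strand, began 10 bases past the start of Cybb. Other forms of such sites, among them the shorter GGAA, were not searched, so the windows were not shown to lack PU.1 sites. Of 32851 promoters of the same length, 32.7% held GGGCGG, 33.8% CCAAT and 23.3% GAGGAA, each on either strand. The RefSeq start of Cybb lies inside the longer gene model given above, and the first transcribed bases of the Cyba entry were not found in the transcripts of that annotation.

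The values are normalized counts per 1e+06 reads (CPM), scaled by the authors to an effective library size within each treatment and rounded to 0.1. Column sums had a median of 977224 in DMSO and 978739 in ibrutinib, which follows from the scaling, so it gives neither the sequencing depth nor a counting error. The tables were normalized separately, so values in DMSO and ibrutinib are set side by side without a test. A total of 5 libraries stood apart in their cell type markers. Eμ-TCL1 replicate 2 in DMSO and Eμ-TCL1 replicate 1 in ibrutinib had sums of 39690.6 and 31269.5 over 19 myeloid markers (lysozyme Lyz2 7931.4 and 5895.8), against 43.2 to 1590.9 in the other 13 libraries. Eμ-TCL1;p53R172H/+ replicates 1 and 2 in DMSO and replicate 1 in ibrutinib had sums of 3637.8, 4803.4 and 2535.4 over 12 T-cell markers. Their B-cell sums, over 10 markers including Cd79a, were 272.1, 267.9 and 66.8, and those of the 2 myeloid-rich libraries were 584.6 and 467.4. In the other DMSO libraries the B-cell sum was 3376.6 to 6079.9, and in the other ibrutinib libraries it was 2745.7 to 3569.6 in Eμ-TCL1 and 569.7 to 1532.3 in Eμ-TCL1;p53R172H/+. In Eμ-TCL1;p53R172H/+ replicate 3 in ibrutinib, which was kept, the T-cell sum (1705.4) was also above the B-cell sum (569.7). No marker of these lists was at 0 in every library of a table. The genotype differences of the members are given over all 15 libraries and without these 5 (the kept libraries), which leaves 2 Eμ-TCL1 and 3 Eμ-TCL1;p53R172H/+ libraries per treatment. In bulk samples, fewer cells of a type and less RNA per cell cannot be told apart.

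**Figure D1:**
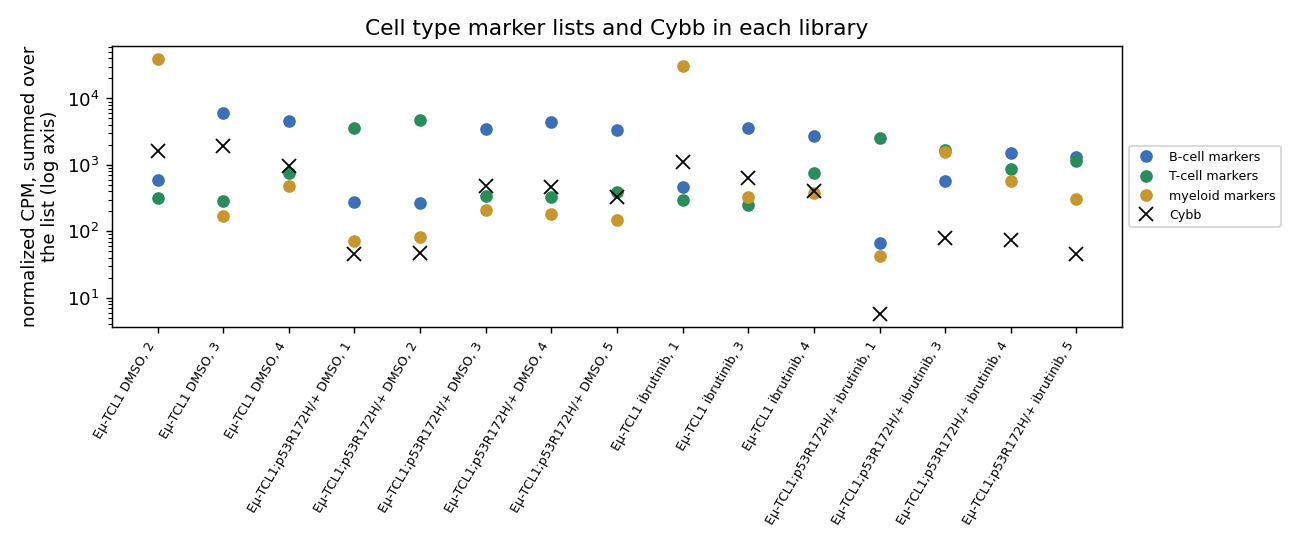
Summed normalized CPM over the B-cell, T-cell and myeloid marker lists, and the normalized CPM of Cybb, in each of the 15 libraries (log axis). The myeloid sum is 39690.6 and 31269.5 in the 2 Eμ-TCL1 libraries that stand apart, and the T-cell sum is above the B-cell sum in Eμ-TCL1;p53R172H/+ replicates 1 and 2 in DMSO and 1 and 3 in ibrutinib.

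Cybb, the catalytic subunit, showed the largest genotype difference of the 5 members in both treatments. In DMSO the normalized CPM of Cybb was 1630.4, 1905.2 and 968.3 in Eμ-TCL1 replicates 2, 3 and 4, and 46.2, 47.3, 476.3, 457.7 and 327.4 in Eμ-TCL1;p53R172H/+ replicates 1 to 5. Every Eμ-TCL1;p53R172H/+ library was below every Eμ-TCL1 library, and the lowest values were those of the T-cell-rich replicates 1 and 2. The mean of Cybb ± SD was 1501 ± 482 over the 3 Eμ-TCL1 libraries and 271 ± 213 over the 5 of Eμ-TCL1;p53R172H/+. This gave a log2 change of -3.05 (standard error 0.90), or 8.26-fold lower on the scale of the value plus 1. Without the 3 DMSO libraries that stood apart, the log2 change was -1.71 (standard error 0.39) and the groups still did not overlap.

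In ibrutinib the normalized CPM of Cybb was 1095, 627 and 404.9 in Eμ-TCL1 replicates 1, 3 and 4, and 5.7, 78.8, 73.7 and 46.3 in Eμ-TCL1;p53R172H/+ replicates 1, 3, 4 and 5. The highest Eμ-TCL1;p53R172H/+ library was below the lowest Eμ-TCL1 library, with no overlap. The mean ± SD was 709 ± 352 over 3 libraries against 51.1 ± 33.5 over 4, and the log2 change was -4.14 (standard error 0.88), or -2.94 (standard error 0.32) without the 2 libraries that stood apart. In the 5 libraries kept in ibrutinib, the myeloid sum was 330.4 to 372.9 in Eμ-TCL1 and 307.6 to 1590.9 in Eμ-TCL1;p53R172H/+ (2 of its 3 libraries above both of Eμ-TCL1). The T-cell sum in these libraries was 251.3 to 753.6 in Eμ-TCL1 and 865 to 1705.4 in Eμ-TCL1;p53R172H/+. The part of these markers in the Cybb difference was not tested beyond the values relative to B-cell genes given further on.

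Cybb is X-linked, and the libraries differed in sex transcripts. Xist, the RNA that silences an X chromosome in female cells, was between 868.7 and 1991.8 in all 6 Eμ-TCL1 libraries, and the Y-linked Ddx3y was 0 in each. Among the Eμ-TCL1;p53R172H/+ libraries, Ddx3y was between 75.1 and 177.3 in replicates 1, 2 and 4 in DMSO and in replicates 1, 3 and 4 in ibrutinib. In DMSO the Xist-positive replicates 3 and 5 had 476.3 and 327.4 of Cybb, and the Ddx3y-positive replicate 4, which also had a high B-cell sum, had 457.7. In ibrutinib the Xist-positive replicate 5 had 46.3 and the Ddx3y-positive replicates 3 and 4 had 78.8 and 73.7. The Xist-positive Eμ-TCL1;p53R172H/+ libraries were also below every Eμ-TCL1 library in both treatments. No Eμ-TCL1 library was Ddx3y-positive, so sex and genotype cannot be fully told apart in any of these comparisons. The part of sex in the differences was not tested. Replicate 3 differed in these transcripts between the treatments, so either the number did not mark the same mouse there or a label is wrong, which cannot be told apart. Both libraries with this number were kept.

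Cyba, the partner that stabilizes gp91phox in the membrane, overlapped between genotypes in DMSO and did not in ibrutinib. Its normalized CPM in DMSO was 240.3, 303 and 295.1 in Eμ-TCL1 replicates 2, 3 and 4, and 104, 84.8, 281.7, 223.9 and 292 in Eμ-TCL1;p53R172H/+ replicates 1 to 5. The 2 lowest values belonged to the T-cell-rich libraries. Its log2 change was -0.67 (standard error 0.45) over all libraries and -0.18 (standard error 0.17) without those that stood apart. In ibrutinib the values were 260.7, 99.8 and 148 in Eμ-TCL1 and 60.3, 53.6, 50.5 and 69 in Eμ-TCL1;p53R172H/+. All 4 Eμ-TCL1;p53R172H/+ libraries were below the 3 of Eμ-TCL1, including the T-cell-rich replicate 1, which was not the lowest. The means ± SD were 170 ± 82.6 over 3 libraries and 58.4 ± 8.19 over 4. This was a log2 change of -1.42 (standard error 0.32), or -1.08 (standard error 0.24) without the libraries that stood apart.

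Ncf1, the organizer that brings the cytosolic subunits to the core, had smaller genotype differences once the libraries that stood apart were left out. In DMSO its normalized CPM was 537.6, 331.4 and 321.9 in Eμ-TCL1 replicates 2, 3 and 4, and 41.9, 39.6, 217.9, 354.9 and 237 in Eμ-TCL1;p53R172H/+ replicates 1 to 5. The highest value was in the myeloid-rich library, the lowest were in the T-cell-rich libraries, and the groups overlapped. Ncf1 had a log2 change of -1.61 (standard error 0.78) with all libraries and -0.31 (standard error 0.26) with the kept ones. In ibrutinib the values were 513.5, 144.1 and 116.6 in Eμ-TCL1 and 13.7, 86.9, 75.3 and 71.2 in Eμ-TCL1;p53R172H/+. The groups did not overlap, but the kept libraries were close, at 116.6 to 144.1 against 71.2 to 86.9. Here Ncf1 had a log2 change of -2.00 (standard error 0.76) with all libraries and -0.73 (standard error 0.17) with the kept ones.

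Ncf4, the subunit that binds phosphatidylinositol 3-phosphate on phagosomes and endosomes, had a genotype difference in ibrutinib that moved little with any single library. Its normalized CPM in DMSO was 124.3, 257.3 and 332.4 in Eμ-TCL1 replicates 2, 3 and 4, and 30.9, 31.8, 144.6, 154.9 and 167.4 in Eμ-TCL1;p53R172H/+ replicates 1 to 5. The groups overlapped only through the myeloid-rich Eμ-TCL1 replicate 2, in which Ncf4 was the lowest of its group. The log2 change was -1.41 (standard error 0.69), and -0.91 (standard error 0.17) without the libraries that stood apart, when the groups no longer overlapped. In ibrutinib the values were 119.8, 86.6 and 93.6 in Eμ-TCL1 and 9.8, 18.3, 19.2 and 13.6 in Eμ-TCL1;p53R172H/+. The lowest Eμ-TCL1 library was far above the highest Eμ-TCL1;p53R172H/+ library. The means ± SD were 100 ± 17.5 over 3 libraries and 15.2 ± 4.37 over 4. The log2 change was -2.67 (standard error 0.26), or 6.35-fold, and -2.35 (standard error 0.19) with the kept libraries. Leaving out each ibrutinib library in turn gave -2.79 to -2.49.

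Rac2, the GTPase of blood cells that switches the oxidase on and also acts in the cytoskeleton, had the smallest log2 differences between genotypes over all libraries. In DMSO its normalized CPM was 352.3, 810.3 and 785.8 in Eμ-TCL1 replicates 2, 3 and 4, and 418.5, 413, 902.2, 757.4 and 951.3 in Eμ-TCL1;p53R172H/+ replicates 1 to 5. The 3 libraries that stood apart were the 3 lowest, and the groups overlapped. The log2 change was 0.09 (standard error 0.44), with no stable direction, since leaving out each library in turn gave -0.30 to 0.30 and quantile normalization gave -0.03. In ibrutinib the values were 394.6, 450.4 and 438.6 in Eμ-TCL1 and 260.7, 242.3, 239.9 and 206.2 in Eμ-TCL1;p53R172H/+. The groups did not overlap, and the library that stood apart was the highest of its genotype in Eμ-TCL1;p53R172H/+ and the lowest in Eμ-TCL1. The means ± SD were 428 ± 29.4 over 3 libraries and 237 ± 22.7 over 4. The log2 change was -0.85 (standard error 0.17), and it was -0.95 (standard error 0.17) with the kept libraries.

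**Figure D2:**
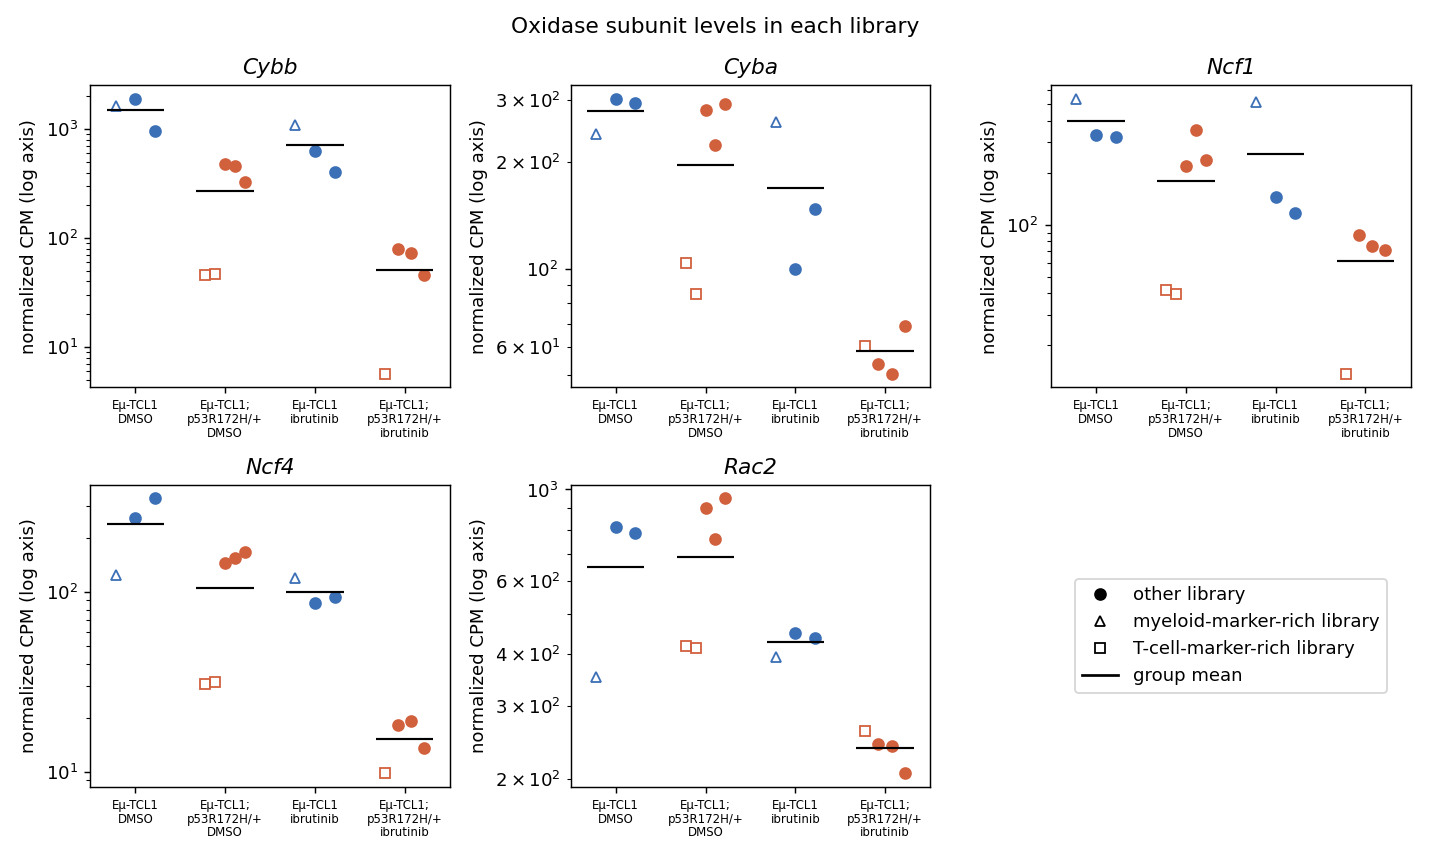
Normalized CPM (log axis) of Cybb, Cyba, Ncf1, Ncf4 and Rac2 in each library by genotype and treatment, with the group mean as a line and open symbols for the 5 libraries that stand apart. In ibrutinib all 4 Eμ-TCL1;p53R172H/+ libraries lie below all 3 Eμ-TCL1 libraries for each gene, and in DMSO this holds for Cybb only.

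Over the 5 members, 1 (Cybb) was lower in every Eμ-TCL1;p53R172H/+ library than in every Eμ-TCL1 library in DMSO, and all 5 were in ibrutinib. No member was higher without overlap, as 3.52% of all genes were in DMSO and 6.68% in ibrutinib. Lower without overlap were 2.93% of the 16470 genes listed in DMSO and 5.97% of the 16428 genes listed in ibrutinib. Without the libraries that stood apart, the counts were 3 members in DMSO (Cybb, Cyba and Ncf4), where the share of all genes was 16.2%, and 5 in ibrutinib, where it was 18.7%. Since the members were chosen with these differences known, the counts are a description. The median log2 change of the members was -1.41 in DMSO and -2.00 in ibrutinib, and that of all genes was 0.04 and -0.05. Tests across all genes with limma called 2 genes in DMSO, 0.0121% of those tested, and 0 in ibrutinib, 0% of those tested, where 1973 genes had an unadjusted p under 0.05.

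**Figure D3:**
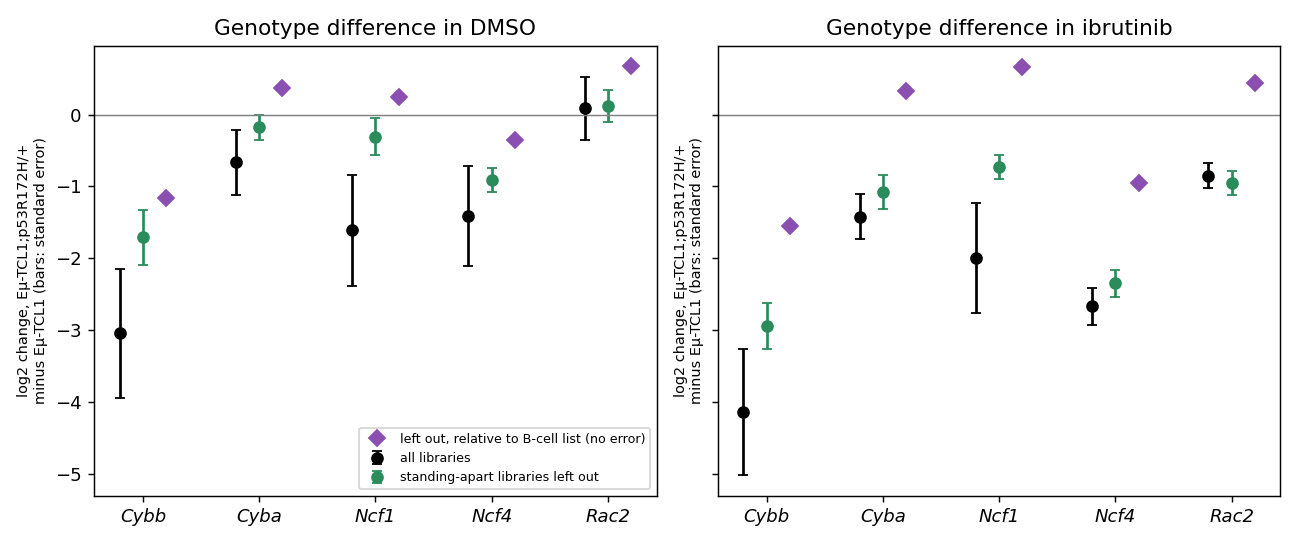
Log2 change of each member (Eμ-TCL1;p53R172H/+ minus Eμ-TCL1) in DMSO and ibrutinib with all libraries, with the 5 libraries that stand apart left out, and with these left out and the values taken relative to B-cell genes (diamonds, no error). Bars are standard errors. Cybb and Ncf4 are below 0 in all 6 versions, whereas Ncf1 and Cyba lie above 0 once taken relative to B-cell genes.

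To set the members against the B-cell content of each library, the mean log2 value of the 10 B-cell markers in that library was subtracted from the log2 value of each member in the kept libraries, a choice made after seeing the data. On this scale Cybb in DMSO was 2.57 and 1.97 in Eμ-TCL1 replicates 3 and 4, and 1.39, 1.12 and 0.83 in Eμ-TCL1;p53R172H/+ replicates 3, 4 and 5. In ibrutinib Cybb was 1.63 and 1.57 in Eμ-TCL1 replicates 3 and 4, and 1.13, -0.24 and -0.73 in Eμ-TCL1;p53R172H/+ replicates 3, 4 and 5. Relative to B-cell genes Cybb was thus lower in each kept Eμ-TCL1;p53R172H/+ library than in the kept Eμ-TCL1 libraries, with a difference between the means of -1.16 in DMSO and -1.55 in ibrutinib. For Ncf4 the differences were -0.36 and -0.95, and the groups overlapped in both treatments. For Ncf1 they were 0.24 and 0.66, and in ibrutinib the kept Eμ-TCL1;p53R172H/+ libraries lay above those of Eμ-TCL1. For Cyba the differences were 0.37 and 0.32, with overlap. For Rac2 they were 0.67, without overlap, and 0.44, with overlap. The direction of Cyba, Ncf1 and, in ibrutinib, Rac2 therefore turned on this scale. The mean log2 value of the B-cell markers itself was 7.66 and 7.10 in the kept Eμ-TCL1 libraries in ibrutinib and 5.19, 6.46 and 6.29 in those of Eμ-TCL1;p53R172H/+, and whether this reflected fewer B-cells was not tested.

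In the difference between the genotype differences in the 2 treatments, a scale factor of a table cancels. Over all libraries this difference was negative for all 5 members. It was -1.26 (standard error 0.83) for Ncf4, -0.94 (standard error 0.49) for Rac2 and -0.75 (standard error 0.59) for Cyba on the log2 scale. For Cybb it was -1.09 (standard error 1.36) and for Ncf1 -0.38 (standard error 1.18), and that of Ncf1 became 0.27 when Eμ-TCL1 replicate 1 in ibrutinib was left out. With the kept libraries the difference was -1.24 (standard error 0.52) for Cybb, -1.44 (standard error 0.26) for Ncf4, -1.07 (standard error 0.26) for Rac2, -0.90 (standard error 0.31) for Cyba and -0.43 (standard error 0.32) for Ncf1. The errors were thus smaller without the libraries that stood apart, and the direction was the same. Taken relative to B-cell genes in the kept libraries, the difference turned to 0.42 for Ncf1. On that scale it was -0.05 for Cyba, -0.23 for Rac2, -0.39 for Cybb and -0.60 for Ncf4. Libraries of 1 genotype with the same number deviated together between treatments in 5 of 6 cases (correlations of 0.75 to 0.84 over genes), the exception being Eμ-TCL1;p53R172H/+ replicate 3 at -0.11. The myeloid-rich libraries, Eμ-TCL1 replicate 2 in DMSO and replicate 1 in ibrutinib, correlated at 0.90 although their numbers differ. Whether libraries of the 2 treatments came from the same mice was not tested. The replicate number was also used as a block, a choice made after seeing the data. In it the 3 libraries without a same-numbered partner add nothing to the estimate. Eμ-TCL1;p53R172H/+ replicate 3, whose sex transcripts differed between the treatments, was joined as a pair in this block, so the estimates and errors include it. With the block the difference was -1.27 (standard error 0.20) for Cybb, -1.05 (standard error 0.51) for Ncf4, -0.76 (standard error 0.43) for Rac2, -0.54 (standard error 0.47) for Cyba and -0.37 (standard error 0.28) for Ncf1. Over all 15869 genes in both tables, limma called 0 genes for this interaction (0%), with 83 at an unadjusted p under 0.05, and with the block it called 0, with 802.

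Levels of different genes were compared per kilobase of exon. In Eμ-TCL1 in DMSO, Cyba had 269 ± 32.9, Cybb 258 ± 82.9, Rac2 209 ± 83.0, Ncf4 118 ± 52.2 and Ncf1 108 ± 33.3 normalized CPM per kb (SD, n = 3). With these lengths, the transcripts of both subunits of the membrane core were at similar levels, within their spread. In Eμ-TCL1;p53R172H/+ in DMSO the order was Rac2 with 222 ± 83.5, Cyba with 190 ± 94.0, Ncf4 with 52.4 ± 33.9, Ncf1 with 48.7 ± 37.1 and Cybb with 46.7 ± 36.6 per kb (SD, n = 5). Cybb had moved from the second place to the last, with no difference from Ncf4 or Ncf1 beyond the spread. In ibrutinib Rac2 was 138 ± 9.48, Cyba 163 ± 79.5 and Cybb 122 ± 60.7 per kb in Eμ-TCL1 (SD, n = 3). In Eμ-TCL1;p53R172H/+ in ibrutinib, Rac2 had 76.5 ± 7.32, Cyba 56.2 ± 7.89, Ncf1 16.9 ± 8.94, Cybb 8.80 ± 5.76 and Ncf4 7.54 ± 2.16 per kb (SD, n = 4).

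Across the 4 groups, set side by side over tables normalized separately, Eμ-TCL1 in DMSO had the highest mean of Cybb, Cyba, Ncf1 and Ncf4, and Eμ-TCL1;p53R172H/+ in ibrutinib the lowest mean of all 5 genes. For Ncf4 the order was Eμ-TCL1 in DMSO (238 ± 105, n = 3), Eμ-TCL1;p53R172H/+ in DMSO (106 ± 68.6, n = 5), Eμ-TCL1 in ibrutinib (100 ± 17.5, n = 3) and Eμ-TCL1;p53R172H/+ in ibrutinib (15.2 ± 4.37, n = 4), where the middle groups did not differ beyond their SD. Cyba and Rac2 shared the last step, since only the lowest group was separated from its neighbour without overlap. For Ncf1 every pair of neighbours in the order overlapped over all libraries, with 397 ± 122 in Eμ-TCL1 in DMSO, 258 ± 222 in Eμ-TCL1 in ibrutinib, 178 ± 136 in Eμ-TCL1;p53R172H/+ in DMSO and 61.8 ± 32.7 in Eμ-TCL1;p53R172H/+ in ibrutinib (SD). With the kept libraries the order of Ncf1 changed in the middle, to 327 in Eμ-TCL1 in DMSO, 270 in Eμ-TCL1;p53R172H/+ in DMSO, 130 in Eμ-TCL1 in ibrutinib and 77.8 in Eμ-TCL1;p53R172H/+ in ibrutinib. For Cybb the order was the same as that of Ncf1 over all libraries, and each pair of neighbours overlapped although each gap was larger than the larger SD.

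Ratios between subunits within a library do not depend on how its table was scaled. They can still differ with the cell types in a library, and the part of these was not tested. The log2 ratio of Cybb to Cyba, the pair that forms the core, was 1.71 to 2.76 in Eμ-TCL1 in DMSO and -1.15 to 1.03 in Eμ-TCL1;p53R172H/+. In ibrutinib it was 1.45 to 2.64 and -3.19 to 0.55. The genotypes did not overlap in either treatment, with or without the libraries that stood apart. The log2 ratio of Ncf4 to Rac2 was -1.65 to -1.24 in Eμ-TCL1 and -3.72 to -2.28 in Eμ-TCL1;p53R172H/+ in DMSO, and -2.37 to -1.71 and -4.60 to -3.58 in ibrutinib. This ratio of neighbours on chromosome 15 was also separated between genotypes in both treatments, with or without the libraries that stood apart. Over all libraries the log2 ratio of Ncf1 to Ncf4 overlapped between genotypes, at -0.05 to 2.10 and 0.31 to 1.19 in DMSO and 0.31 to 2.09 and 0.44 to 2.31 in ibrutinib. In the kept libraries, 2 of Eμ-TCL1 and 3 of Eμ-TCL1;p53R172H/+ per treatment, the genotypes did not overlap. How often other ratios separate in so few libraries was not counted. The ratio there was -0.05 to 0.36 in Eμ-TCL1 and 0.50 to 1.19 in Eμ-TCL1;p53R172H/+ in DMSO, and in ibrutinib it was 0.31 to 0.73 in Eμ-TCL1 and 1.92 to 2.31 in Eμ-TCL1;p53R172H/+.

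**Figure D4:**
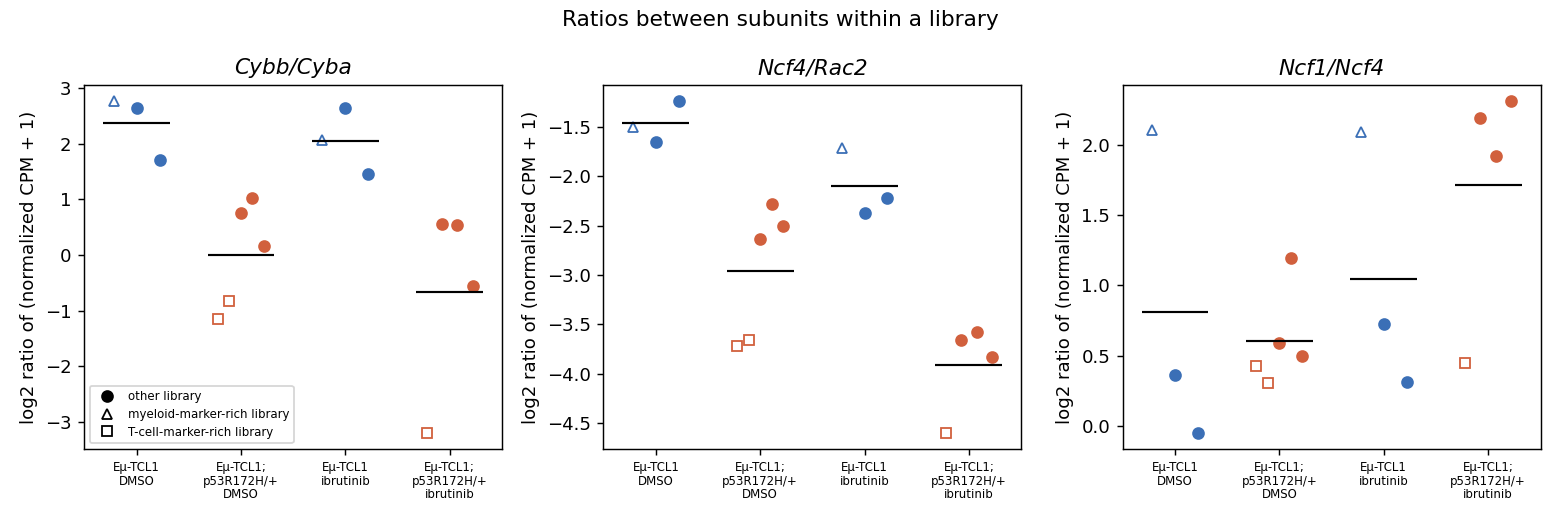
Log2 ratios of Cybb to Cyba, Ncf4 to Rac2 and Ncf1 to Ncf4 (each value plus 1) in every library, with group means as lines and open symbols for the libraries that stand apart. The first 2 ratios separate the genotypes in both treatments (Cybb to Cyba at 1.71 and above in Eμ-TCL1 and at 1.03 and below in Eμ-TCL1;p53R172H/+ in DMSO), and the third does so only without the open symbols.

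BC017643, an older symbol of the gene for Eros, a chaperone of gp91phox, was 63.4 to 76.5 in Eμ-TCL1 and 45.3 to 62.7 in Eμ-TCL1;p53R172H/+ in DMSO, and 54.2 to 74.5 and 35.4 to 49.2 in ibrutinib. Its groups did not overlap in either treatment, but the log2 changes of -0.36 (limma adjusted p = 0.636) and -0.50 (limma adjusted p = 0.357) did not pass the test.

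The list of other oxidase subunits and assembly genes had 8 members listed in DMSO and 7 in ibrutinib. Of these, 0 passed the test in either direction, with 1 at an unadjusted p under 0.05 in each. Over all genes limma called 0.0121% in DMSO and 0% in ibrutinib, and 8.17% and 12% had an unadjusted p under 0.05. A count of 0 called in this list or in those below is therefore near the share of all genes. Rap1a, a small GTPase that binds the core, had log2 changes of -0.17 and -0.24, and Rap1b of 0.58 and 0.55, or -0.14, -0.35, 0.88 and 0.91 in the same order with the kept libraries. Nox1, a relative of Cybb in epithelia, and its partners Noxa1 and Noxo1 had values of at most 2.4 in every library. The median log2 change of the list was -0.09 in DMSO and -0.17 in ibrutinib. In the Rac family, which relays signals to the cytoskeleton, 0 of 3 genes passed in DMSO and 0 of 4 in ibrutinib. Rac1, the general family member that can replace Rac2, was 159 ± 25.5 (SD, n = 3) and 159 ± 31.9 (SD, n = 5) in DMSO and 140 ± 32.6 (SD, n = 3) and 123 ± 5.48 (SD, n = 4) in ibrutinib. Its log2 changes were -0.01 and -0.17, or -0.07 and 0.02 with the kept libraries, beside -0.85 for Rac2 in ibrutinib. Cdc42 had log2 changes of -0.34 and -0.29, or -0.32 and -0.14 with the kept libraries. Rhog had -0.07 and -0.23, and its direction turned with the kept libraries, at 0.37 and 0.36. Rac3 was at 0.2 to 0.6 in the ibrutinib table.

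Among 23 genes linked to activation of the oxidase (protein kinases C, Vav and Tiam exchange factors, phospholipases and others), 0 passed in either direction in both treatments. Not all of them are activators, so a count of lower genes does not measure activation. In this list 14 were lower in DMSO and 17 in ibrutinib, where 46.7% and 54.4% of all genes were. The medians of -0.11 and -0.52 became 0.17 and -0.18 without the libraries that stood apart. The largest changes in DMSO were those of Tiam1, an exchange factor for Rac (-1.95, limma adjusted p = 0.645), and Pla2g4a, a cytosolic phospholipase A2 (-1.64, limma adjusted p = 0.645), and both turned positive with the kept libraries, at 0.41 and 0.23. In ibrutinib they were Vav2, an exchange factor for small GTPases (-1.34, limma adjusted p = 0.545), and Prkcb, the protein kinase C of B-cell receptor signaling (-1.17, limma adjusted p = 0.347). Prkcb was 227.9 to 363.1 in Eμ-TCL1 and 63.9 to 200.5 in Eμ-TCL1;p53R172H/+, with no overlap. These named genes were all lower over all libraries and do not stand for the whole list. Prkca, another protein kinase C, went the other way in DMSO, at 26.4 to 76.9 in Eμ-TCL1 and 102.1 to 161.3 in Eμ-TCL1;p53R172H/+. Its log2 change there was 1.43 (limma adjusted p = 0.349), or 1.12 with the kept libraries, without overlap in either case. In ibrutinib it was 0.55, with overlap.

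Of the genes that handle reactive oxygen species, some of them regulators, 20 of 21 were listed and 0 passed, with 11 lower in each treatment. Over all genes 46.7% were lower in DMSO and 54.4% in ibrutinib. The median log2 change of the list was -0.31 in DMSO and -0.23 in ibrutinib. With the kept libraries it turned to 0.19 and 0.21. Prdx2, a peroxiredoxin that reduces hydrogen peroxide, was 70.5 to 119.2 in Eμ-TCL1 and 29.2 to 47.9 in Eμ-TCL1;p53R172H/+ in DMSO. In ibrutinib Prdx2 was 34.2 to 118.6 and 16.4 to 27.8. The groups did not overlap in either treatment, and the log2 changes of -1.11 (limma adjusted p = 0.375) and -1.34 (limma adjusted p = 0.327) were -0.62 and -0.78 with the kept libraries. Gsr, which regenerates glutathione, had -1.20 in DMSO (limma adjusted p = 0.725), with values of 11.3 to 511.9 in Eμ-TCL1. With the kept libraries Gsr had -0.25 in DMSO and 1.34 in ibrutinib. Prdx4, a peroxiredoxin of the endoplasmic reticulum, had -1.40 in ibrutinib (limma adjusted p = 0.382) and -1.06 with the kept libraries. The genes named here were lower over all libraries and do not stand for the whole list. Of 7 genes that supply NADPH, the electron donor of the oxidase, 0 passed, with 7 lower in DMSO and 6 in ibrutinib. Idh1, the cytosolic isocitrate dehydrogenase, had -1.45 and -1.22, and Pgd of the pentose phosphate pathway had -1.12 and -0.93. With the kept libraries these values were -0.27 and -0.12 for Idh1 and 0.15 and 0.56 for Pgd, nearer to 0 or of the other sign.

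Of 11 transcription factors known at oxidase genes, 0 passed in either treatment, with 8 lower in DMSO and 10 in ibrutinib. The share of all genes that were lower was 46.7% and 54.4%. Spi1 (PU.1), which drives CYBB and NCF1 in myeloid cells, was 37.6 to 134.5 in Eμ-TCL1 and 2.3 to 37.6 in Eμ-TCL1;p53R172H/+ in DMSO, and 26.3 to 151.9 and 0.8 to 19.2 in ibrutinib. Its log2 changes were -2.20 (limma adjusted p = 0.608) and -2.37 (limma adjusted p = 0.405), and with the kept libraries they were -0.38 and -0.76, with no overlap in ibrutinib in either case. Irf8, a partner of PU.1, had -0.46 and -1.74, and 0.95 and -0.56 with the kept libraries. Spib, the relative of PU.1 in B-cells, had -0.16 and -1.73, and 0.60 and -1.13 with the kept libraries. Cebpa, Cebpb and Cebpe, factors of granulocytes, had -1.19, -1.20 and -2.24 in DMSO and -0.91, -1.05 and -1.88 in ibrutinib, with their highest values in the myeloid-rich libraries. With the kept libraries Cebpa turned to 1.55 and 1.36, with Eμ-TCL1;p53R172H/+ above Eμ-TCL1 without overlap, and did not pass the limma test. Its kept values were low, at 0.5 and 1 against 3.2 to 5.1 in DMSO and 1.3 and 2.5 against 4.5 to 10.7 in ibrutinib. With the kept libraries Cebpb had -0.42 and -0.26 and Cebpe -0.42 and 0.17, where Cebpe was at most 1.5. The interferon-driven Irf1 had -0.09 in DMSO and -0.11 in ibrutinib over all libraries, but with the kept libraries it had -1.46 and -0.89, without overlap between genotypes in both treatments, and did not pass the limma test in either. In the kept libraries 16.2% of all genes in DMSO and 18.7% in ibrutinib were lower without overlap, and the share higher was not counted. Elf1 had 0.55 and 0.49 and turned to -0.45 and -0.06 with the kept libraries. Runx1 had 0.04 and -0.81, and the NF-κB subunit Rel 0.56 and -0.29, against 1.07 and -0.23 and 1.01 and -0.24 with the kept libraries.

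The 8 listed genes that start between Ncf4 and Rac2 on chromosome 15 did not all lie in 1 direction, with 6 lower and 2 higher in Eμ-TCL1;p53R172H/+ in each treatment. Over all genes 46.7% were lower in DMSO and 54.4% in ibrutinib. None of the 8 passed the limma test in either treatment. An unadjusted p under 0.05 was seen for 3 of them in DMSO and 4 in ibrutinib. This is a larger share than the 8.17% and 12% of all genes. Since the 8 genes share the same libraries, these counts are a description. Mpst, a sulfurtransferase, was 21.5 to 25.9 in Eμ-TCL1 and 11.9 to 16.7 in Eμ-TCL1;p53R172H/+ in DMSO, and 18.7 to 21.5 and 9.5 to 13.5 in ibrutinib. Its groups did not overlap in either treatment, with log2 changes of -0.71 (limma adjusted p = 0.503) and -0.70 (limma adjusted p = 0.269), or -0.78 and -0.79 with the kept libraries. Csf2rb, the shared receptor chain for GM-CSF, IL-3 and IL-5, had -2.19 (limma adjusted p = 0.553) and -2.71 (limma adjusted p = 0.346), and its relative Csf2rb2 had -1.82 and -1.87. With the kept libraries these were -1.35 and -1.78 for Csf2rb and -0.72 and -0.82 for Csf2rb2. Il2rb, a receptor chain of T-cells and NK-cells, had 1.42 and 2.22, its highest values were in the T-cell-rich libraries, and in DMSO its direction turned without the libraries that stood apart (-0.95, with 1.49 in ibrutinib). C1qtnf6 had 0.86 and 1.21, and its direction in DMSO turned in the same way (-0.11, with 1.19 in ibrutinib). Tst had -1.40 and -1.15, or -0.40 and -0.09 with the kept libraries. Kctd17 had -0.47 in both treatments and Gm6723 had -0.63 and -0.31, against -0.32 and -0.17 and -0.80 and -0.46 with the kept libraries.

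**Figure D5:**
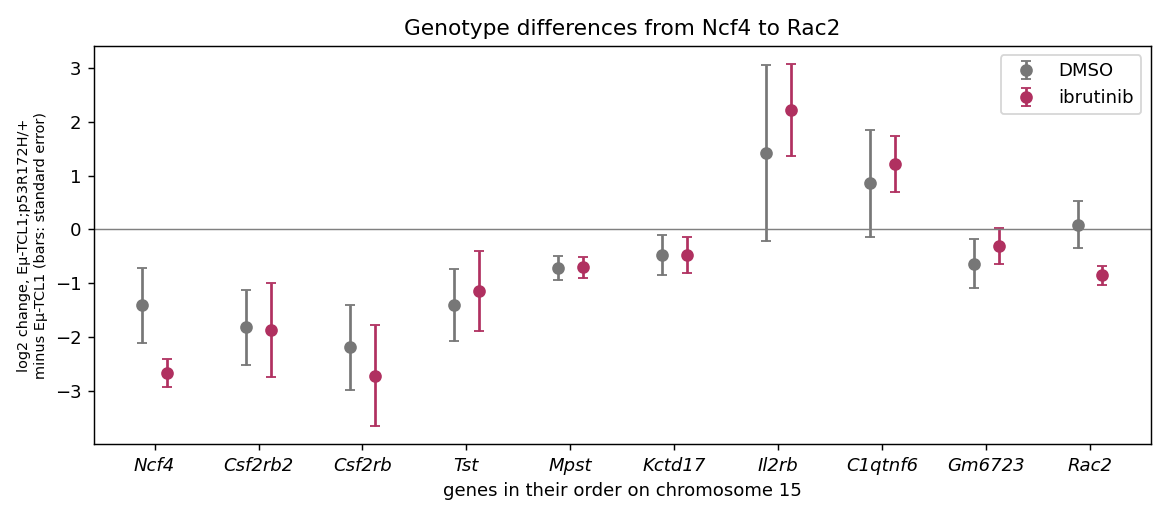
Log2 change (Eμ-TCL1;p53R172H/+ minus Eμ-TCL1, with standard errors as bars) of Ncf4, Rac2 and the 8 listed genes between them, in their order on chromosome 15, in DMSO and ibrutinib with all libraries. Ncf4 and Csf2rb lie lowest in ibrutinib (-2.67 and -2.71), and Il2rb lies highest (2.22).

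The genes whose levels ran most like each member were taken as those with the smallest root-mean-square (RMS) difference over the 15 libraries of log2 values centred in each table, among 10119 genes with a mean of at least 5 in both. For Cybb these were Pirb (RMS 0.63), an inhibitory receptor for MHC class I, Pld4 (0.70) and Nfam1 (0.70). For Cyba they were Tuba1c (0.24), Bri3bp (0.30) and H3f3a (0.33). For Ncf1 they were Zfp516 (0.39), Gapt (0.40) and Crybg3 (0.41). For Ncf4 they were Ifi30 (0.45), a thiol reductase of antigen processing, the myosin Myo7a (0.48) and Themis2 (0.56), a B-cell signaling adaptor. For Rac2 they were Slc25a17 (0.14), Nudt5 (0.22) and Sfxn1 (0.22). No member was among the 3 genes nearest to another member. The pair of members with the smallest RMS difference was Cyba and Rac2 (0.51), followed by Ncf4 and Cyba (0.66) and Ncf4 and Ncf1 (0.72), and the largest was that of Cybb and Rac2 (1.91). In the ranks of all genes by likeness to a member, the nearest members were Ncf1 for Cybb (23 of 10118) and Cyba for Ncf4 (24). They were Ncf4 for Ncf1 (108), Rac2 for Cyba (206) and Cyba for Rac2 (2672). The ranks differed by direction, as Cybb ranked 449 for Ncf1 and Ncf4 ranked 1216 for Cyba. The median RMS difference from the genes compared was 0.63 for Rac2 and 2.20 for Cybb, so RMS values of different members are not on 1 scale. All points share the same libraries, including the 5 that stood apart.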

How the data were processed

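RNA-seq of 15 cultured spleen libraries was analysed from 2 deposited tables, 1 per treatment. The authors aligned reads with TopHat2 2.0.12, counted them per gene with HTSeq on GRCm38, filtered low genes and scaled them with edgeR. The unit of the deposited tables is a signal, a normalized CPM given to 0.1. All 15 columns held genes at every step of 0.1 up to 2, so no step of 1 read was visible, reads could not be rebuilt and no count test was run. Within a table, genotypes were compared in R 4.3.3 by limma 3.58.1 (lmFit, eBayes with a trend) on log2(value + 1). P-values were adjusted by Benjamini-Hochberg over all listed genes, with a threshold of 0.05. This scale understates changes of low genes. The labels do not say that replicates are separate mice, so p-values measure the spread between these libraries. The interaction was fitted over all 15 libraries. Members and lists were chosen with earlier results of these data known, so members have no p-value. Named genes were the members, all listed genes of the assembly, Rac and transcription factor lists, the 2 largest changes per table with a mean of at least 5 in the other pathway lists, the 3 genes most like each member, the genes between Ncf4 and Rac2, and Lyz2, Csf1r, Itgam, Cd79a, Cd3e, Xist and Ddx3y as markers. Gtf2ird2 was added after its overlap with Ncf1 was seen, and Prkca as a gene of the activation list that went the other way. Some genes that this rule names are not reported here.

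Alternatives were pseudocounts of 0.1 and 5, a mean of at least 5, quantile normalization, columns rescaled to a sum of 1e+06, sample quality weights, a replicate block, each library left out in turn and groups of libraries left out. Leaving out the libraries that stood apart in ibrutinib and in the interaction, values relative to B-cell genes, and a block of the number across treatments were added after seeing the data. Of the gene identifiers, 98.3% matched GENCODE M21 on GRCm38, used for positions and exon lengths. Promoters came from RefSeq (GRCm38.p6), with 3 of 5 members matched. The fits were tested on simulated data in which the spread of each gene was capped. This checks the fitting steps and does not show how they perform with the spread between these libraries. Plots used Python 3.11.15 and matplotlib 3.10.9.

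Further marker lists were summed per library. The NK-cell sum was 407.9 to 782.7 in the 3 T-cell-rich libraries, 65.2 to 166.1 in the other Eμ-TCL1;p53R172H/+ libraries in ibrutinib and 12.2 to 59.4 elsewhere. The erythroid sum was 15273.9 and 13193.7 in the 2 myeloid-rich libraries and at most 223.9 in the others. The dendritic-cell sum was at most 99.2, the megakaryocyte sum at most 90.6, and the plasma-cell sum 72.9 to 621.7. Cd3e was 82 to 282.9 in the T-cell-rich libraries. Csf1r was 353.7 and 258.8 and Itgam 821.4 and 690.2 in the myeloid-rich libraries.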

Additional observations from a re-analysis of the deposited data

How the results depend on the processing

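Without the libraries that stood apart, the log2 change of Ncf1 was -0.31 in DMSO and -0.73 in ibrutinib, and the genotype difference of log2 Ncf1/Ncf4 was 0.60 and 1.62. Relative to the B-cell genes as well, the log2 changes were 0.37 and 0.32 for Cyba, -1.16 and -1.55 for Cybb, 0.24 and 0.66 for Ncf1, -0.95 for Ncf4 in ibrutinib and 0.44 for Rac2 in ibrutinib. On that scale the interaction was -0.051 for Cyba, -0.23 for Rac2, -0.39 for Cybb, -0.60 for Ncf4 and 0.42 for Ncf1. Without the T-cell-rich libraries the interaction was -1.37 for Cyba and -1.41 for Rac2. Rac2 in ibrutinib was -0.70 after quantile normalization. Quantile normalization moved the median log2 change of all genes in ibrutinib from -0.05 to 0.07, and no other scaling moved a median by over 0.1.

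Leaving out each library in turn gave -0.85 to -0.41 for Cyba, -3.41 to -2.57 for Cybb, -1.99 to -1.20 for Ncf1, -1.82 to -1.06 for Ncf4 and -0.30 to 0.30 for Rac2 in DMSO. In ibrutinib it gave -1.74 to -1.06, -4.51 to -3.32, -2.40 to -1.34, -2.79 to -2.49 and -0.91 to -0.79. The interaction was -1.08 to -0.39 for Cyba, -1.57 to -0.27 for Cybb, -0.79 to 0.27 for Ncf1, -1.61 to -0.85 for Ncf4 and -1.15 to -0.55 for Rac2. The genotype difference of log2 Ncf1/Ncf4 was -0.63 to 0.44 in DMSO and 0.30 to 1.19 in ibrutinib.

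The count of genes called by limma in DMSO was 2, and it was 1 without the T-cell-rich libraries, 12 without all libraries that stood apart, 6 with a pseudocount of 5, and 803 with sample quality weights. Leaving out each library gave 0 to 61, where 61 came without Eμ-TCL1 replicate 2 and 0 without its replicate 3 (1741 at an unadjusted p under 0.05). Omitting Eμ-TCL1;p53R172H/+ replicate 4 gave 5. In ibrutinib the count was 2 with columns rescaled to a sum of 1e+06 and 28 with weights. There leaving out each library gave 0 to 24, where 24 came without Eμ-TCL1 replicate 1, and omitting Eμ-TCL1;p53R172H/+ replicate 5 gave 5. Of the pathway genes, 8 passed in DMSO with weights and 0 in the main analysis, Mpst, Noxa1 and Rap1b among the named genes that passed only so. The cause of these differences was not tested. With the replicate number as a block, 0 genes were called in DMSO (970 at an unadjusted p under 0.05), 0 in ibrutinib (1490) and 0 for the interaction (300). Same-numbered libraries of the genotypes correlated at 0.05 to 0.28 in DMSO and -0.20 to -0.05 in ibrutinib. Of 12 such libraries 5 correlated best with their own number, all of them in DMSO. The numbers thus did not pair the genotypes in ibrutinib, and in DMSO the correlations were low and a pairing cannot be told. Between treatments within a genotype they correlated at -0.11 to 0.84, so not every pair was over 0.1, and with that block 0 genes were called for the interaction (802). Since depth is not known, no limit from depth can be given for low values.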
